A study of Rattus norvegicus with 24 samples.

Results

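The natriuretic peptide system was followed in rat kidney and heart through 10 genes, chosen by symbol and present in all 3 count tables out of 36856 genes in each. They are the peptide genes Nppa, Nppb and Nppc, the receptor genes Npr1, Npr2 and Npr3, the convertase genes Corin and Pcsk6, and the cGMP-dependent kinase genes Prkg1 and Prkg2. The choice used no measured value, although earlier results of these data were known when it was made.

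RNA was sequenced from 24 samples, 4 rats in each of 6 groups, all Sprague-Dawley rats of 120 to 200 g on a synthetic diet for 7 days. In the aldosterone experiment, rats on 0.4% Na with an osmotic minipump releasing 12 µg of aldosterone per day were set against controls fed that diet, for which no pump is named, and the tissue was the papilla (inner medulla) of the kidney. In the low-salt experiment, rats on 0.01 to 0.02% Na were compared with rats on 0.4% Na, in the papilla and in a piece of the heart ventricle. The 0.4% diet of that experiment is called high salt here, as in the sample titles, although the protocol calls it a control diet. In every group replicates 1 and 2 were batch 1 and replicates 3 and 4 were batch 2, and whether papilla and ventricle came from the same rats is not stated.

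The natriuretic peptides are hormones that lower blood pressure and promote Na excretion. ANP (from Nppa) and BNP (from Nppb) are made by heart muscle cells, mainly in the atria, and ventricular cells make more of both when stretched or loaded. ANP and BNP bind a receptor that is itself a guanylyl cyclase, and the cGMP it makes acts through cGMP-dependent kinases, channels and phosphodiesterases; in the inner medullary collecting duct this pathway opposes Na reabsorption.

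Levels are given as normalised CPM, the counts of a gene scaled to a common library total with each library's effective size. Library totals were 24299400 to 38318800 counts. The labelled tissues carried their markers: 7 ventricular muscle markers summed to 57034 CPM or more in each heart library and to at most 10.9 CPM in each papilla library. The rats are labelled female, yet Xist was at most 0.0932 CPM in the 16 low-salt experiment libraries, which had 148 to 276 CPM over 4 Y-linked genes, while the 8 aldosterone experiment libraries had 234.4 to 451 CPM of Xist. Both groups of each experiment share this pattern, so it separates the 2 kidney experiments and not the groups within them. Transcripts of kidney tubules were present in the batch 1 heart libraries: 14 tubule markers summed to 19.5 and 74.5 CPM in low-salt replicates 1 and 2 and to 24.7 and 172 CPM in high-salt replicates 1 and 2, against at most 1.35 CPM in the 4 batch 2 hearts. Each tissue is a mixture of cells, so fewer cells of a type and less RNA per cell cannot be told apart.

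The promoters of the 2 peptide genes measured in ventricle are shown because these were the members with the largest differences between diets. Both are from RefSeq on the rat assembly GRCr8, 250 bases before the transcript start on the + strand, at chr5:163711934-163712183 for Nppa and chr5:163699758-163700007 for Nppb. The genes are direct neighbours, with 0 annotated genes between them. Capitals mark matches on either strand to GATAA (the core bound by GATA factors), AAGTG (NKX2-5), CATTCC (TEAD factors) and TATAAA (the TATA box).
Nppa: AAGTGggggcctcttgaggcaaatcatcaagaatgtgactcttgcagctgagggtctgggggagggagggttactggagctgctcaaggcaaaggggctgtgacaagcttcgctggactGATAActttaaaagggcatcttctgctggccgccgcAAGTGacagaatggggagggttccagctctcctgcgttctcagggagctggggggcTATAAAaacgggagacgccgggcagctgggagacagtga
Nppb: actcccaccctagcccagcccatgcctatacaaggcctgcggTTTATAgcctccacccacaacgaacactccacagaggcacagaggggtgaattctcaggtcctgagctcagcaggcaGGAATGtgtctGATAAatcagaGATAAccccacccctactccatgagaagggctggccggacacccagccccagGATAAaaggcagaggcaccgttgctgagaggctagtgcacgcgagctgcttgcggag
The Nppa window held 1 GATAA, 131 to 127 bases before the start, 2 AAGTG, at 250 to 246 and 95 to 91 bases, and 1 TATAAA at 39 to 34 bases. The Nppb window held 3 GATAA, at 120 to 116, 109 to 105 and 57 to 53 bases, and on the opposite strand 1 CATTCC at 131 to 126 bases and 1 TATAAA at 208 to 203 bases. By its distance and strand that TATAAA is a sequence match only and is not read as the TATA box of Nppb. No pair of these matches overlapped. Neither window held TGANTCA (the AP-1 core) or a CArG box. Such matches are common: of 33469 rat promoters of this length, 23.5% hold GATAA, 40.6% AAGTG, 12.1% CATTCC, 12.9% TATAAA, 6.34% TGANTCA and 1.497% a CArG box. The promoter table held 8 of the 10 genes.

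In ventricle, transcripts of both cardiac peptides were lower on low salt than on high salt, Nppb by a factor of 0.279 and Nppa by a factor of 0.155, and neither passed the adjusted threshold in edgeR. Of the 8 members that passed the filter on low counts in heart, 0 were called at an adjusted p of 0.05 by edgeR's quasi-likelihood test, 2 had an unadjusted p under 0.05 and 1 was called by DESeq2. Over all 15473 genes tested in heart, edgeR called 0.0517% and 10.6% had an unadjusted p under 0.05, and DESeq2 called 2.43% of its 12473 genes with an adjusted p.

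Nppb, the gene of BNP, had 69.7, 95.1, 56.7 and 84.5 CPM in low-salt hearts, against 267, 224, 142 and 465 CPM in high-salt hearts. All 4 low-salt libraries lay below all 4 high-salt libraries. Nppb was the single tested member in heart whose groups did not overlap, where 4.72% of all genes did not overlap in either direction and 2.04% had every low-salt library below every high-salt one. The group means were 76.5 ± 16.8 CPM in low-salt hearts and 275 ± 137 CPM in high-salt hearts (SD, n = 4 each). The log2 fold change was -1.84 ± 0.35 (standard error) with an adjusted p of 0.157 in edgeR's quasi-likelihood test. The difference was negative in both batches, -1.58 log2 units in batch 1 and -1.89 in batch 2. DESeq2 gave the same fold change with an adjusted p of 0.00166, and edgeR without the filter on low counts gave an adjusted p of 0.00611, so the call depends on the tool and filter. Only these 2 of 17 alternative fits had an adjusted p under 0.05, and the largest was 0.438. In edgeR fits that left out 1 library the adjusted p was 0.0794 to 0.354. Without high-salt replicate 4, the highest library, the log2 fold change was -1.36 ± 0.20.

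Nppa, the gene of ANP, had 45.0, 69.7, 16.7 and 202 CPM in low-salt hearts, against 265, 102, 299.8 and 2513 CPM in high-salt hearts. The groups overlapped through 1 pair of libraries, low-salt replicate 4 and high-salt replicate 2, and high-salt replicate 4 was far above every other heart. The means were 83.2 ± 81.8 CPM in low-salt hearts and 795 ± 1148.5 CPM in high-salt hearts, so the SD of the high-salt group exceeded its mean. The log2 fold change was -2.69 ± 0.95 with an adjusted p of 0.378 in edgeR, and -1.59 ± 0.73 with an adjusted p of 0.531 without high-salt replicate 4. The difference was -1.54 log2 units in batch 1 and -3.88 in batch 2. DESeq2 gave an adjusted p of 0.151.

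The balance of the 2 peptide transcripts also varied between hearts. The ratio of Nppa to Nppb CPM was 0.645, 0.733, 0.295 and 2.39 in low-salt hearts, against 0.990, 0.454, 2.11 and 5.40 in high-salt hearts. Replicate 4 had the highest ratio of its group on both diets, and the diets overlapped. The ratio is not corrected for transcript length, so it compares hearts and not the 2 genes.

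**Figure D1:**
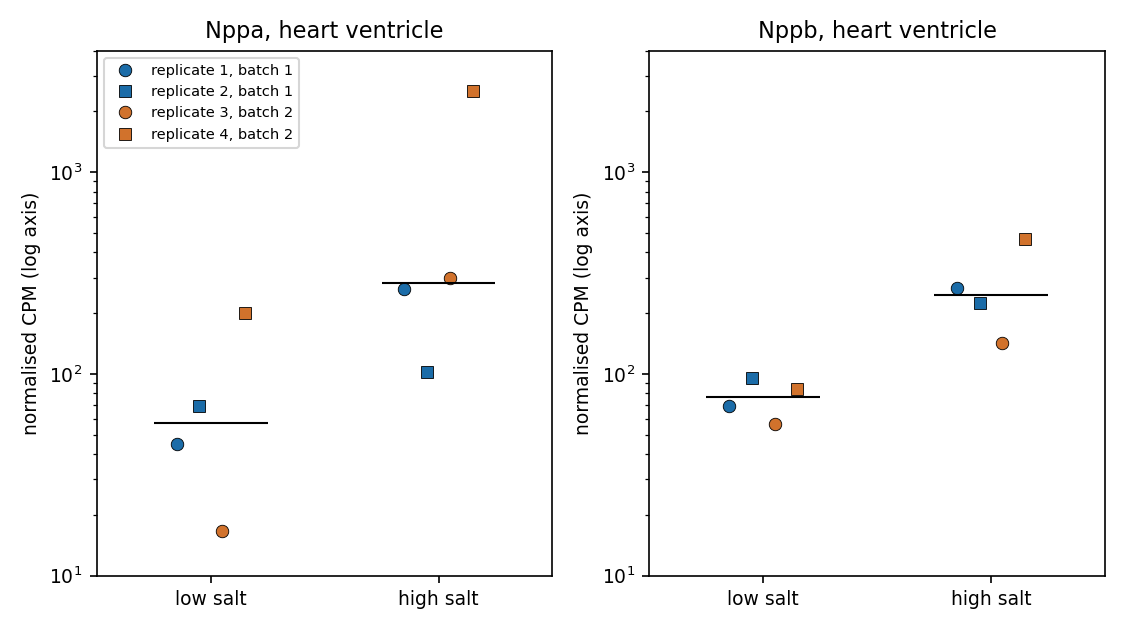
Normalised CPM (log axis) of Nppa and Nppb in each heart ventricle library on low and on high salt, 4 libraries per group, with a line at the group median and batch shown by colour. Nppb does not overlap between 56.7 to 95.1 CPM on low salt and 142 to 465 CPM on high salt, and Nppa has 1 library at 2513 CPM on high salt.

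Other genes, listed as load genes of the ventricle, were measured in the same libraries. The labels give no measure of load, and its part in the peptide difference was not tested. Acta1, the skeletal muscle actin gene that ventricular muscle expresses under load, had 861, 1114, 1717 and 1736 CPM in low-salt hearts, against 2876, 2534, 5747 and 5212 CPM in high-salt hearts. Acta1 fell on low salt without overlap, by 1.56 log2 units with a standard error of 0.10 and an adjusted p of 0.00258 in edgeR. The call held with each library left out in turn, where the adjusted p was 0.000847 to 0.0340, and was lost with the replicate number as a block, at 0.0785, with no batch term, at 0.282, and in batch 1 alone, at 0.106. Ankrd1, a stretch-responsive ankyrin repeat gene, had 2158, 2084, 2556 and 2154 CPM on low salt, against 3463, 4119, 4361 and 7331 CPM on high salt. Its groups did not overlap either, and its log2 fold change of -1.07 ± 0.17 had an adjusted p of 0.105. Myh7, the slow myosin heavy chain gene, had 759, 804, 221 and 298 CPM on low salt, against 742, 801, 1048 and 4491 CPM on high salt. High-salt replicate 4 was the highest library for Nppa, Nppb, Ankrd1 and Myh7, but not for Acta1. All 6 genes of this list of load genes had a negative fold change, with 1 called and a median of -0.65 log2 units, where the median over all genes was -0.01. The list includes genes that earlier results of these data had shown, and its count is not independent evidence of its direction.

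The genes most like a member were ranked by the mean absolute difference of log2(CPM + 0.5), centred on each gene's mean, over the 8 hearts, among 10379 genes. For Nppb these were Crym, which encodes a thyroid hormone binding protein, at 0.376, Col8a1, a collagen chain gene, at 0.460 and Ankrd1 at 0.463. Nppa had no close match: its nearest genes, Acta1, LOC120102105 and Elovl7, differed by 1.04 to 1.08 log2 units.

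Markers of other cells in the ventricle piece were set beside the peptides. Atrial muscle markers, 6 in all, summed to 230.8 to 285 CPM in low-salt hearts and 169 to 258 CPM in high-salt hearts, of which Dkk3 gave most, 234.5 CPM on average in low-salt hearts and 191 CPM in high-salt hearts. Myl7, the atrial myosin light chain gene, had 11.6, 6.68, 11.5 and 3.74 CPM on low salt, against 54.8, 3.99, 12.9 and 15.9 CPM on high salt. Myl4, another atrial myosin light chain gene, had 2.27, 2.51, 2.24 and 2.89 CPM on low salt, against 3.08, 3.26, 2.29 and 3.96 CPM on high salt. Both light chain genes had a negative log2 fold change, -1.30 ± 0.69 for Myl7 and -0.35 ± 0.21 for Myl4, as the peptides had, and the adjusted p-values in edgeR were 0.554 and 0.601. Sln, an atrial gene for a calcium pump inhibitor, had 0.835, 1.33, 3.10 and 0.853 CPM on low salt, against 1.22, 0.703, 0.266 and 0.107 CPM on high salt. Bmp10, the atrial growth factor gene, was at most 0.0985 CPM in any heart and at 0 in all 4 high-salt hearts. Sln (1.59 ± 0.75), the atrial potassium channel gene Kcna5 (1.04 ± 0.39) and Dkk3 (0.33 ± 0.09) had positive fold changes, so the markers of the list did not move together, and 0 were called. In high-salt replicate 4, where Nppa was highest, Myl4 was the highest and Sln and Kcna5 were the lowest of the 8 hearts, and Myl7 was second to high-salt replicate 1. The part of atrial tissue in the peptide difference was not tested. The 5 fibroblast markers summed to 1239, 1066, 2255 and 2131 CPM on low salt, against 2397, 1983, 1789 and 1905 CPM on high salt, and their part in the peptide difference was not tested. The 5 erythroid markers summed to 16930, 53812, 18787 and 41635 CPM on low salt, against 29666, 32298, 8687 and 2145 CPM on high salt. All 5 had a positive fold change, with a median of 1.32 log2 units and 0 called. They were all positive in both papilla comparisons as well, with 0 called. Their part in the peptide difference was not tested either.

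**Figure D2:**
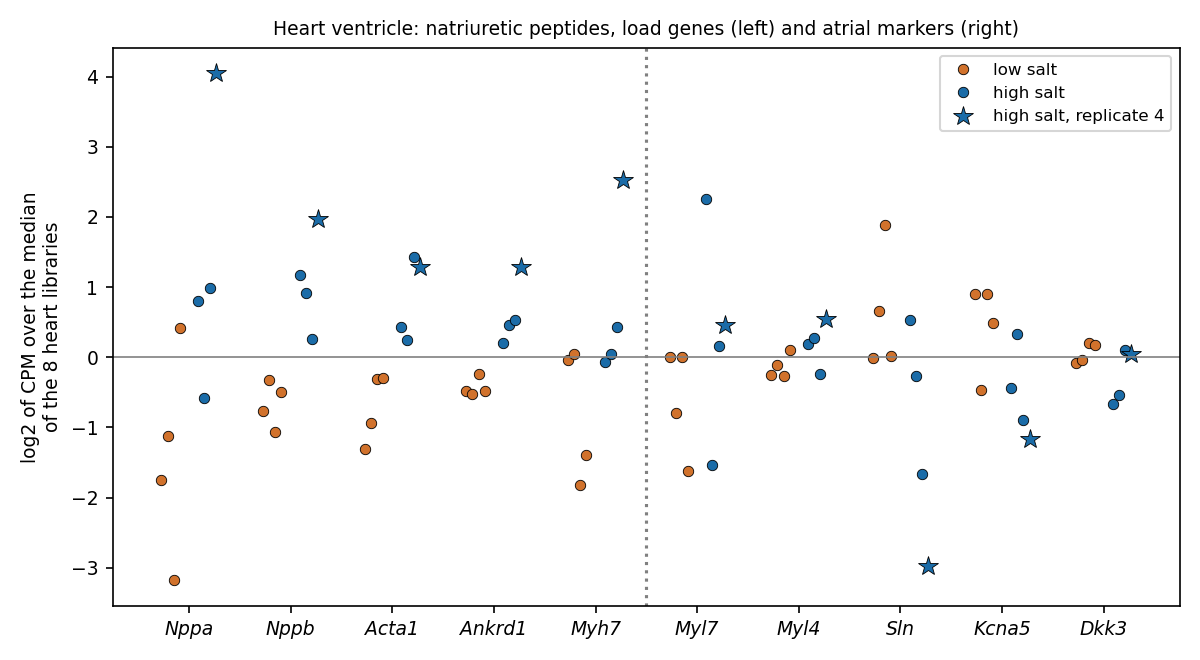
Log2 of CPM over the gene's median in the 8 heart libraries, for the peptide genes, 3 load genes and, right of the dotted line, 5 atrial markers, with low-salt libraries left of high-salt libraries and a star for high-salt replicate 4. That library is the highest for Nppa at 2513 CPM and for Nppb at 465 CPM, and among the atrial genes the highest for Myl4 at 3.96 CPM and the lowest for Sln at 0.107 CPM and Kcna5 at 2.35 CPM.

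Nppc, the gene of CNP, a peptide of endothelium and other tissues, was near the limit of detection in both tissues. Its estimated counts in low-salt hearts were 4, 13, 1 and 2, against 0, 1, 2 and 0 in high-salt hearts. The sums of 20 and 3 counts rest mostly on low-salt replicate 2, and the exact two-sided permutation test gave p = 0.143, where the smallest p this design allows is 0.0286. In papilla, all 16 libraries together held 9 counts of Nppc, 3 of Nppa and 2 of Nppb among 495969600 counts. A floor of 3 counts corresponds to 0.0783 to 0.123 CPM in a papilla library, so peptide transcripts were not detectable there above that level.

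Npr1 encodes the guanylyl cyclase receptor of ANP and BNP. In papilla on low salt it had 29.9, 40.0, 28.6 and 33.7 CPM, against 49.3, 45.7, 43.7 and 37.7 CPM on high salt. The low-salt libraries were lower in 15 of 16 pairs, and low-salt replicate 2 and high-salt replicate 4 overlapped. The means were 33.0 ± 5.11 CPM in low-salt papillae and 44.1 ± 4.83 CPM in high-salt papillae, a log2 fold change of -0.41 ± 0.11 with an unadjusted p of 0.00466 and an adjusted p of 0.0856 in edgeR. It was the 1 of 7 tested members of the papilla with an unadjusted p under 0.05, where 19.6% of all 18449 genes had one. By edgeR 0 of the 7 members were called, against 2.46% of all genes, and 0 had groups that did not overlap, against 11.4%. DESeq2 called 1, Npr1, with an adjusted p of 0.0147, where it called 10.6% of 15945 genes. The difference was -0.45 log2 units in batch 1 and -0.38 in batch 2. Endothelial markers, from cells that express Npr1, summed to 734, 729, 473 and 632 CPM on low salt, against 952, 861, 763 and 680 CPM on high salt. Emcn, one of these 7 markers, fell by 0.75 log2 units with a standard error of 0.12 and an adjusted p of 0.0319 in edgeR, a call kept only without low-salt replicate 1, low-salt replicate 4 or high-salt replicate 4 among the 8 fits that leave out 1 library, and lost with no batch term, with the replicate block and in each batch alone, at 0.0737 to 0.191. Of the 7 markers 5 had a negative fold change, with a median of -0.19 log2 units. Some markers of other cells were lower on low salt as well, and some were higher. Slc14a2, the urea transporter gene of the inner medullary collecting duct, fell by 0.81 log2 units with a standard error of 0.12, without overlap. Its adjusted p was 0.0207 in edgeR, a call that was not followed through the alternative fits. Of the other 4 collecting duct markers 0 were called, and Aqp3 (0.18 ± 0.17) and Fxyd4 (0.07 ± 0.15) had positive fold changes. The sums of the 5 overlapped, at 8730 to 12405 CPM on low salt and 11331 to 13780.3 CPM on high salt. Smooth muscle markers summed to 32.4 to 43.2 CPM on low salt, against 44.9 to 48.8 CPM on high salt, without overlap. Of the 4 tested, 2 had a negative fold change, Tagln (-0.38 ± 0.14) and Myh11 (-0.95 ± 0.25, adjusted p 0.0872 in edgeR). Acta2 (0.24 ± 0.24) and Des (0.11 ± 0.19) were positive. The part of these markers in the Npr1 value was not tested.

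Aldosterone gave no such value for Npr1: 34.2, 31.0, 40.8 and 19.3 CPM in aldosterone papillae, against 32.4, 37.1, 26.4 and 25.1 CPM in controls. The groups overlapped fully, with a log2 fold change of 0.07 ± 0.21 and an adjusted p of 0.934 in edgeR. The difference between the aldosterone and low-salt effects on Npr1 was 0.46 ± 0.25 log2 units with an adjusted p of 0.459 in edgeR, so the 2 effects were not shown to differ. None of the 7 members tested was called in this test, with adjusted p-values from 0.459 to 0.968 and 0 unadjusted p-values under 0.05. Over all 18938 genes this test called 0.0528%, and 13.1% had an unadjusted p under 0.05. In ventricle, Npr1 had 16.7, 18.9, 20.3 and 18.3 CPM on low salt, against 23.7, 26.8, 21.2 and 16.5 CPM on high salt. The log2 fold change was -0.23 ± 0.13 with an adjusted p of 0.578, and the low-salt effects in papilla and ventricle differed by -0.17 ± 0.18 log2 units with an adjusted p of 0.735 in edgeR. Of the 6 members above the filter in both tissues 0 were called and 0 had an unadjusted p under 0.05 for that difference. Nppa, Nppb and Prkg2 also entered the fit, although each was near 0 in 1 of the tissues, and among all 9 members 0 were called and 1, Prkg2, had an unadjusted p under 0.05, of 0.0250, with an adjusted p of 0.259, which rests on its 5 counts in 1 heart library. In this test edgeR called 0.83% of 19408 genes and 14.4% had an unadjusted p under 0.05.

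Npr2 encodes the receptor cyclase for CNP. Its 8 heart libraries lay between 21.0 and 25.5 CPM and its 16 papilla libraries between 6.44 and 12.5 CPM, without overlap. The log2 fold change was 0.22 ± 0.14 for aldosterone, -0.00 ± 0.15 for low salt in papilla and -0.04 ± 0.07 for low salt in ventricle, with adjusted p-values in edgeR of 0.643, 0.990 and 0.877.

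Npr3 encodes the clearance receptor, which removes the peptides from the circulation and has no cyclase domain. Its mean was 77.1 CPM in the 8 hearts and 7.63 CPM in the 16 papillae, a ratio of 10.1 between tables that were deposited separately and are compared as a description only. In hearts on low salt it had 28.9, 95.5, 94.8 and 81.4 CPM, against 47.3, 69.6, 116 and 83.3 CPM on high salt. Replicate 1 was the lowest library on both diets, and the groups overlapped, with a log2 fold change of -0.04 ± 0.32 and an adjusted p of 0.972 in edgeR. The genes with the most similar pattern over the hearts were Ackr4, an atypical chemokine receptor gene, Dhrs9, a dehydrogenase gene, and Vcam1, a vascular adhesion gene, within 0.112 to 0.163 log2 units on average. In papilla under aldosterone Npr3 had 15.5, 7.01, 12.7 and 6.67 CPM, against 9.29, 7.97, 7.03 and 5.73 CPM in controls. These groups overlapped, with a log2 fold change of 0.49 ± 0.29 and an adjusted p of 0.622. Low salt in papilla gave 0.07 ± 0.13 log2 units.

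**Figure D3:**
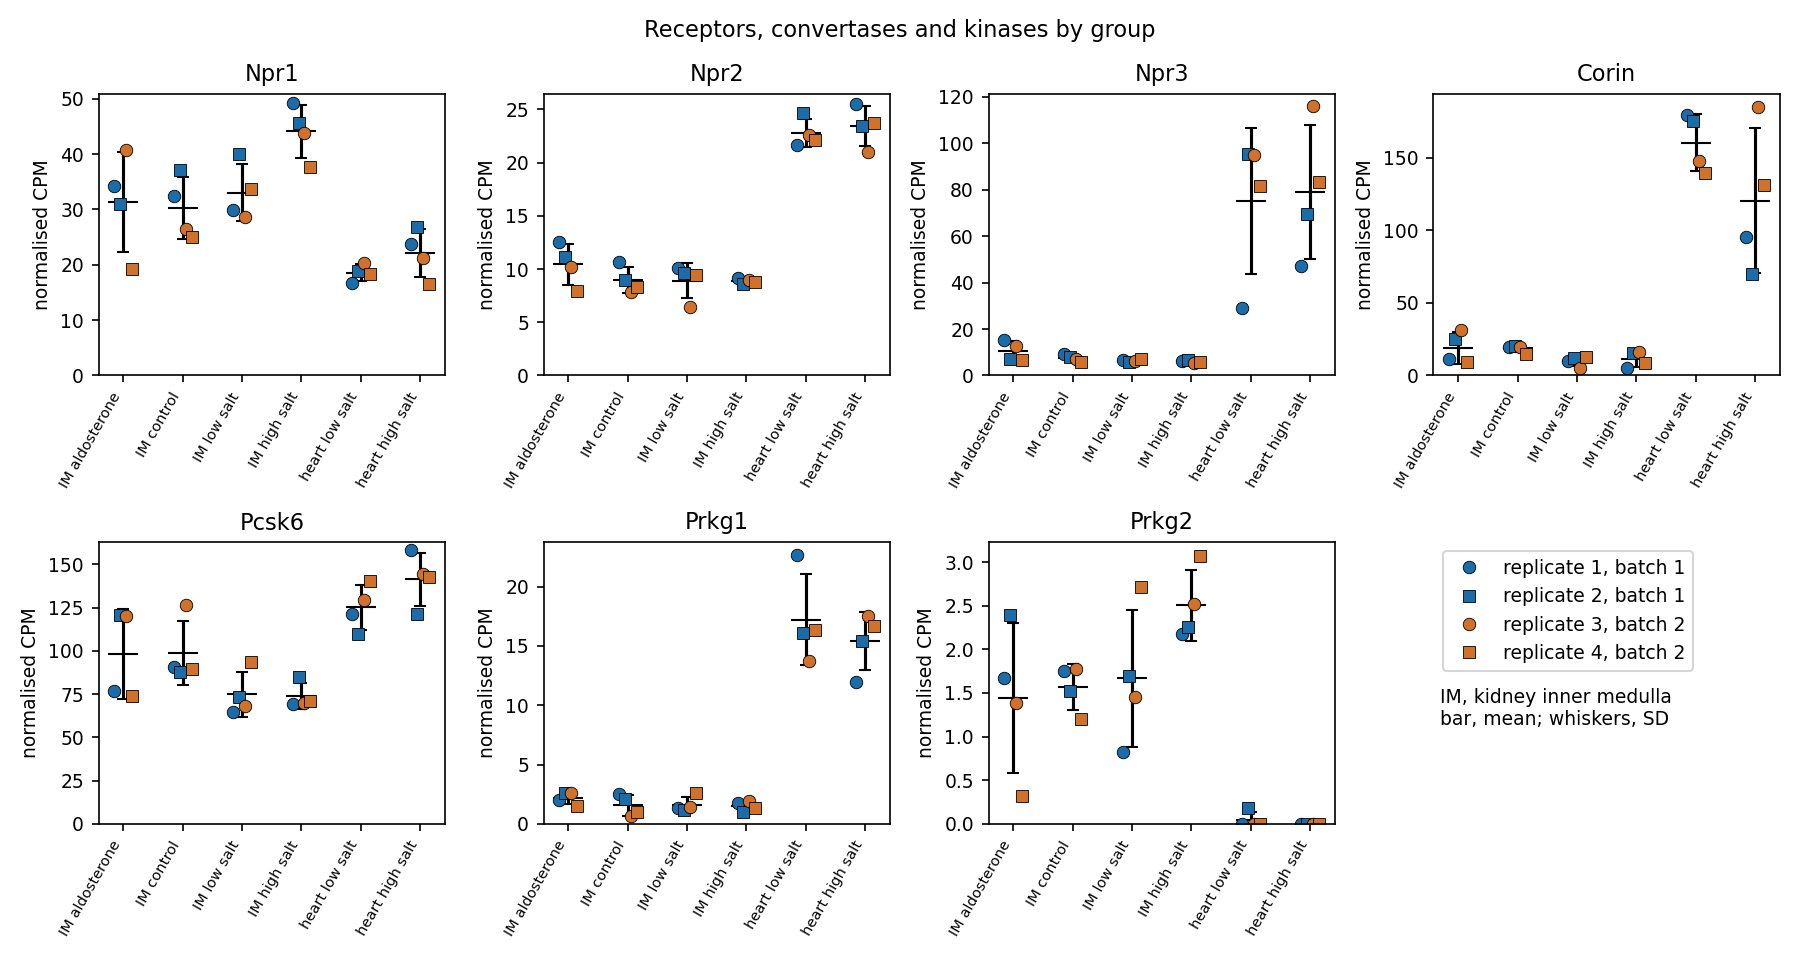
Normalised CPM of the receptor, convertase and kinase genes in each library of the 6 groups, 4 libraries each, with the mean as a bar and the SD as whiskers and IM for the inner medulla (papilla). Npr2, Npr3, Corin and Prkg1 are higher in every ventricle library than in any papilla library. Npr1 averages 33.0 CPM in papilla on low salt, against 44.1 CPM on high salt.

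Corin encodes the membrane protease that cuts pro-ANP. In ventricle it had 179, 175, 148 and 139.6 CPM on low salt, against 95.2, 70.2, 185 and 131 CPM on high salt. The low-salt hearts were above the high-salt hearts in batch 1 and between them in batch 2, with differences of 1.11 and -0.12 log2 units, a fit of 0.48 ± 0.25 and an adjusted p of 0.548 in edgeR. In papilla under aldosterone Corin had 11.0, 24.9, 31.2 and 8.95 CPM, against 19.96, 20.4, 19.9 and 14.7 CPM in controls. Aldosterone replicates 2 and 3 were high and replicates 1 and 4 low, and control replicate 4 was the lowest of its group. The log2 fold change was 0.02 ± 0.39 with an adjusted p of 0.989. The 4 thick ascending limb markers, Umod among them, summed to 2471, 4737, 4570 and 2298 CPM in the same aldosterone papillae and 2508, 2690, 2579 and 1077 CPM in controls. The high libraries were the same for Corin and for these markers, and their part in the Corin values was not tested. On low salt papilla Corin had 10.3, 12.0, 5.40 and 12.8 CPM, against 5.26, 15.8, 16.1 and 8.74 CPM on high salt, with full overlap and a log2 fold change of -0.18 ± 0.40. Over the 16 papillae, the genes with the pattern most like Corin were Dnajc28, Atp2a3, a calcium pump gene, and Esm1, an endothelial gene, within 0.299 to 0.319 log2 units on average over 11935 genes.

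Pcsk6 encodes a proprotein convertase that activates Corin. In ventricle it had 121, 109.5, 129.6 and 140.4 CPM on low salt, against 158, 121, 144 and 143 CPM on high salt. The groups overlapped, with a log2 fold change of -0.18 ± 0.09 and an adjusted p of 0.534 in edgeR. In papilla the log2 fold change was -0.00 ± 0.20 for aldosterone and 0.02 ± 0.13 for low salt, and single libraries stood apart, control replicate 3 at 126 CPM and high-salt replicate 2 at 85.0 CPM.

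Prkg1 encodes the cGMP-dependent kinase of smooth muscle and other cells, and Prkg2 the membrane-bound kinase. Prkg1 averaged 16.3 CPM in ventricle and 1.72 CPM in papilla, a ratio of 9.47 given as a description. Under aldosterone it had 2.06, 2.62, 2.62 and 1.48 CPM, against 2.51, 2.08, 0.669 and 0.980 CPM in controls. The groups overlapped, with a log2 fold change of 0.64 ± 0.35 and an adjusted p of 0.594 in edgeR, the lowest adjusted p of the 7 members in that comparison. In ventricle, Prkg1 had 22.7, 16.1, 13.7 and 16.4 CPM on low salt, against 11.9, 15.4, 17.5 and 16.7 CPM on high salt, with overlap. Prkg2 in papilla had 0.823, 1.69, 1.45 and 2.71 CPM on low salt, against 2.17, 2.26, 2.52 and 3.07 CPM on high salt. Low-salt replicate 4 was the one library above the lower high-salt values, and the log2 fold change was -0.62 ± 0.29 with an adjusted p of 0.288 in edgeR. Its 5 counts in hearts all came from low-salt replicate 2, at 0.185 CPM, a library that also held kidney tubule markers, at 74.5 CPM. High-salt heart replicate 2 held more of those markers, at 172 CPM, and had 0 counts of Prkg2. The source of the 5 counts was not tested.

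Under aldosterone 0 of the 7 members tested were called by edgeR, 0 had an unadjusted p under 0.05, 0 had groups that did not overlap and DESeq2 called 0, with adjusted p-values in edgeR from 0.594 to 0.998. Over all 17671 genes, edgeR called 0%, 9.9% had an unadjusted p under 0.05 and 5.09% did not overlap, and DESeq2 called 2.29% of 16300 genes. Aldosterone replicate 4 was the lowest of its group in 7 of 7 members. Endothelial markers in that papilla summed to 594 CPM, against 871 to 1023 CPM in the other aldosterone papillae, and control replicate 4, the lowest of its group in 4 of 7 members, had 560 CPM. Aldosterone replicate 4 was also the lowest of its group for fibroblast (112 CPM), podocyte (92.5 CPM) and leukocyte (22.3 CPM) marker sums. It was the highest for intercalated cell markers (2569 CPM). How many of all genes were lowest in that library was not counted. The part of these markers in the member values was not tested. The median log2 fold change of the members tested was 0.07 for aldosterone, -0.00 for low salt in papilla and -0.11 for low salt in ventricle, beside medians over all genes of 0.00, -0.00 and -0.01.

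**Figure D4:**
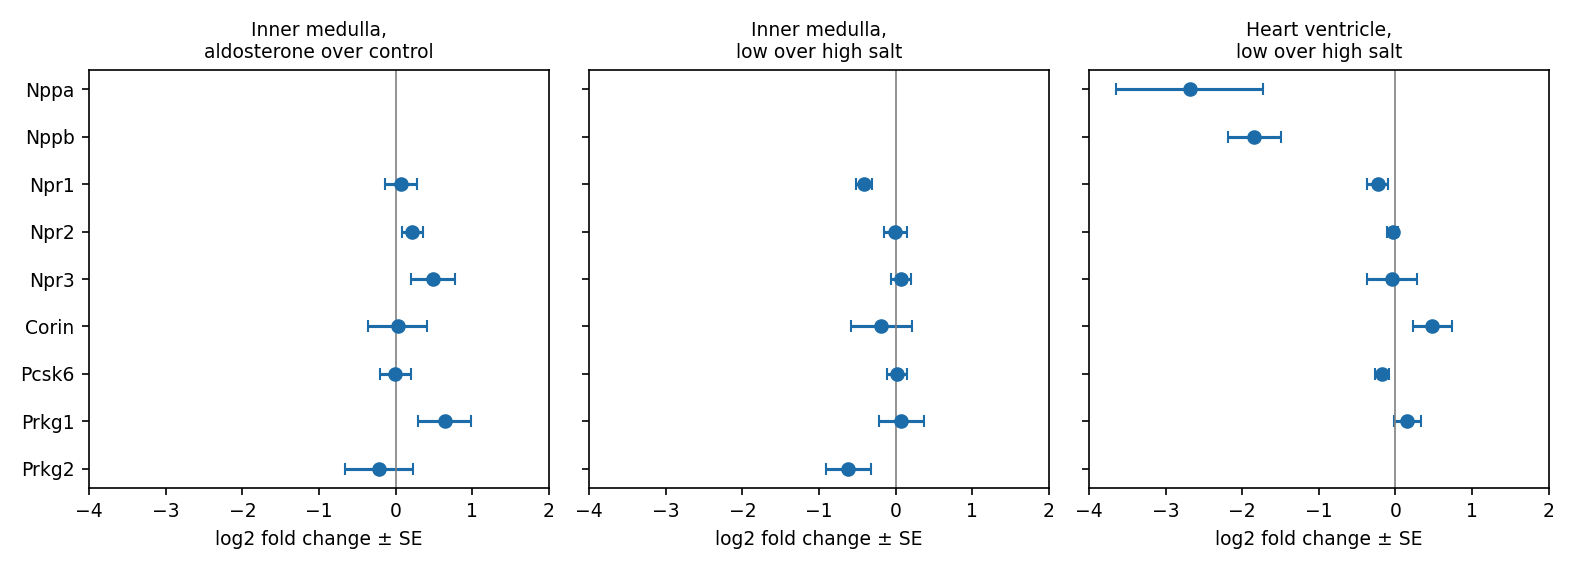
Log2 fold changes with standard errors from edgeR for each member tested, in aldosterone over control papilla and in low over high salt papilla and ventricle. Nppa at -2.69 and Nppb at -1.84 in ventricle are the largest, and none passed the adjusted threshold.

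In papilla on low salt, 2 genes of the wider pathway passed the threshold, the kinase target Itpr1 upward and the cGMP exporter Abcc4 downward. The wider pathway was followed in 6 lists, which hold 37 genes tested in this comparison, of which edgeR called 2, 8 had an unadjusted p under 0.05 and DESeq2 called 6, where the shares over all genes were 2.46%, 19.6% and 10.6%, so no count is read as particular to these lists.

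Itpr1, the inositol trisphosphate receptor on which the kinase acts, had 218, 212, 216 and 220.4 CPM on low salt, against 168, 162, 168 and 185 CPM on high salt. It rose without overlap, with a log2 fold change of 0.35 ± 0.06 and an adjusted p of 0.0289 in edgeR. The call was lost in 6 of the 8 fits that leave out 1 library (all but those without low-salt replicate 1 or high-salt replicate 4), where the adjusted p reached 0.0941. It was also lost with the replicate block, at 0.0679, and in each batch alone, at 0.220 and 0.216. Abcc4, a pump that exports cGMP and cAMP, fell to 217 ± 34.0 CPM in low-salt papillae, against 348 ± 98.3 CPM in high-salt papillae. The groups overlapped, with a log2 fold change of -0.67 ± 0.13 and an adjusted p of 0.0475 in edgeR. That call was lost in 7 of the 8 fits (all but that without high-salt replicate 4), where the adjusted p reached 0.137. It was also lost in 5 of 9 other settings: DESeq2 size factors in edgeR, at 0.0515, no batch term, at 0.119, the replicate block, at 0.0721, and each batch alone, at 0.274 and 0.133.

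Genes of peptide maturation and breakdown had 4 of 5 positive fold changes and a median of 0.46 log2 units in that comparison, with 0 called by edgeR, 2 with an unadjusted p under 0.05 and 2 called by DESeq2. Mme, or neprilysin, which degrades the peptides, had 92.4, 139, 108 and 99.2 CPM on low salt, against 58.8, 90.2, 55.6 and 62.8 CPM on high salt. All 4 low-salt libraries lay above the high-salt ones, with a log2 fold change of 0.72 ± 0.16 and an adjusted p of 0.0598 in edgeR. Pcsk5, a convertase, did not overlap either, with 0.46 ± 0.11 and an adjusted p of 0.0672. Dpp4, a peptidase that trims BNP, gave 1.24 ± 0.56 with 0.271 and overlapped. Mme and Dpp4 are also genes of proximal tubule cells, whose 5 markers summed to 96.9 to 401 CPM in low-salt papillae, against 59.8 to 319.8 CPM in high-salt papillae, and their part was not tested.

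Genes of cGMP production outside the natriuretic receptors were soluble cyclase subunits, the cyclase gene Gucy2c, nitric oxide synthases and guanylin peptides. They had 3 of 8 positive fold changes and a median of -0.19 in papilla on low salt. Of these 0 were called by edgeR, 1 had an unadjusted p under 0.05 and 1, Guca2b, was called by DESeq2. Guca2b, the gene of the cyclase-activating peptide uroguanylin, gave -2.01 ± 0.75 log2 units with an adjusted p of 0.190 in edgeR. High-salt replicate 1 alone reached 8.42 CPM of Guca2b, against 0.446 to 1.31 CPM in the low-salt papillae. Guca2a, the gene of guanylin, gave -0.76 ± 0.40, and Gucy1a2, a subunit of the soluble cyclase, 0.21 ± 0.17. Breakdown and export genes had 6 of 11 positive and a median of 0.09, and after Abcc4 the phosphodiesterase genes Pde1a (0.25 ± 0.09) and Pde10a (0.36 ± 0.26) had the smallest p. Kinase targets had 4 of 7 positive and a median of 0.15, and after Itpr1 the smallest p belonged to Ppp1r12a, a myosin phosphatase subunit (0.15 ± 0.06), and Kcnma1, a calcium-activated potassium channel (0.54 ± 0.28). Among cardiac transcription factor genes, 0 of 5 were called by edgeR, 1 had an unadjusted p under 0.05 and DESeq2 called 1, Mef2a, whose log2 fold change was 0.22 ± 0.06 with an adjusted p of 0.0801 in edgeR. Tbx5 gave 0.44 ± 0.36 and Myocd -0.63 ± 0.54. Of the load genes Ankrd1 alone was tested in papilla, at 0.30 ± 0.17.

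Under aldosterone, edgeR and DESeq2 each called 0 of the 38 genes tested of the 6 lists, where they called 0% and 2.29% of all genes, and 6 had an unadjusted p under 0.05, against 9.9% of all genes. Pde9a, a cGMP phosphodiesterase gene, had 2.27, 2.88, 4.59 and 3.24 CPM in aldosterone papillae, against 1.35, 2.18, 1.57 and 1.47 CPM in controls. The groups did not overlap, with a log2 fold change of 0.95 ± 0.28 and an adjusted p of 0.319 in edgeR. Itpr1 was lower without overlap, at 212 to 240.1 CPM in aldosterone papillae, against 241 to 283 CPM in controls, with -0.18 ± 0.07 and an adjusted p of 0.431. Of the maturation and breakdown genes 3 of 5 were positive, with Mme at 0.70 ± 0.24 (adjusted p 0.401), Furin at -0.23 ± 0.16 and Pcsk5 at -0.18 ± 0.13. Of the genes of cGMP production 5 of 8 were positive, with Nos1, a nitric oxide synthase gene, at -0.53 ± 0.17 (adjusted p 0.377). The soluble cyclase subunits Gucy1b1 and Gucy1a1 were at 0.73 ± 0.27 and 0.85 ± 0.36. Markers of stromal cells had positive fold changes beside these genes, Irag1 and Prkg1, in 4 of 4 fibroblast and 3 of 4 smooth muscle markers tested, and 0 were called. The 5 fibroblast markers summed to 112 to 353 CPM in aldosterone papillae, against 85.4 to 272 CPM in controls, with Col1a1 at 1.47 ± 0.25 (no overlap, adjusted p 0.182) and Col3a1 at 1.15 ± 0.23. The 5 smooth muscle markers summed to 39.8 to 68.7 CPM, against 23.4 to 43.8 CPM in controls, with Tagln at 1.04 ± 0.30, Des at 0.79 ± 0.30 and Myh11 at -0.43 ± 0.30. Their part in these values was not tested. Of the breakdown and export genes 7 of 11 were positive, with Pde1a at -0.22 ± 0.11 and Pde5a at -0.18 ± 0.11 after Pde9a. Of the kinase targets 2 of 8 were positive, with Kcnma1 at 0.47 ± 0.23 and Irag1, which links the kinase to Itpr1, at 0.73 ± 0.37. The medians of these lists were 0.03, 0.12, 0.14 and -0.11 log2 units. The cardiac factors Mef2c, Myocd and Mef2a gave 0.39 ± 0.24, 0.37 ± 0.35 and -0.07 ± 0.08, and of the load genes Csrp3 gave 0.52 ± 0.41 and Ankrd1 -0.03 ± 0.20.

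In ventricle, edgeR called 1 of 42 genes of the 6 lists, Acta1, while 7 had an unadjusted p under 0.05 and DESeq2 called 4, Acta1, Ankrd1, Furin and Vasp, where the shares over all genes were 0.0517%, 10.6% and 2.43%. Of these, 1, 4 and 2 were load genes, a list chosen with earlier results known. Furin, a convertase that can cut pro-BNP, averaged 135 ± 3.34 CPM in low-salt hearts, against 111 ± 12.9 CPM in high-salt hearts. The groups did not overlap, with a log2 fold change of 0.29 ± 0.07 and an adjusted p of 0.267 in edgeR. Of the maturation and breakdown genes 4 of 5 were positive, and Dpp4 gave 0.23 ± 0.16 and Pcsk5 -0.17 ± 0.17. Of the genes of cGMP production 3 of 7 were positive, with Gucy1b1 at -0.29 ± 0.15, Nos1 at 0.76 ± 0.56 and Gucy1a2 at 0.31 ± 0.23. Of the breakdown and export genes 5 of 11 were positive, with Pde3b at -0.21 ± 0.13, Pde1a at -0.18 ± 0.13 and Pde3a at 0.13 ± 0.10. Vasp, a substrate of the kinase, gave -0.34 ± 0.07 with an adjusted p of 0.212, Pln, phospholamban, 0.21 ± 0.08 with 0.406, and Irag1 -0.24 ± 0.14. Of these kinase targets 2 of 6 were positive. The medians of the 4 lists were 0.23, -0.02, -0.03 and -0.12 log2 units. Of the 7 cardiac factors that act at the peptide genes, 2 were positive, the median was -0.06, and edgeR and DESeq2 each called 0, with 0 unadjusted p-values under 0.05. Nkx2-5, the factor that binds AAGTG, gave 0.07 ± 0.08, Mef2c -0.11 ± 0.08 and Srf, which binds CArG boxes, -0.09 ± 0.10. Neither promoter window held a CArG box. The list held no GATA or TEAD factor, so factors of the marked GATAA and CATTCC matches were not examined. Of the load genes, Xirp2, a muscle structural gene, had the smallest p after Acta1 and Ankrd1, at -0.22 ± 0.07 with an adjusted p of 0.356.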

How the data were processed

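Rat papilla and ventricle RNA was measured in 24 libraries. Per the labels, mRNA libraries were stranded (TruSeq kit) and were sequenced for 50 cycles from 1 end. Tools named in the submitters' processing notes are Salmon, Trimmomatic, MultiQC and bcl2fastq 2.19. The settings, build, annotation and strandedness used are not given in these sources. The authors deposited expected counts (estimated counts that need not be whole) in 3 tables, 1 per experiment and tissue.

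The counts were rounded and each table was fitted with edgeR 4.0.16 in R 4.3.3: filterByExpr with a minimum count of 10, TMM scaling, and a quasi-likelihood test with a batch term. The p-values were adjusted by Benjamini and Hochberg's method across every gene in the fit and called at 0.05, and a ± beside a log2 fold change is its standard error. Differences between effects were tested as interactions over 16 libraries. Members below the filter were tested by exact permutation of log2(CPM + 0.5). The fit was also run on simulated counts drawn without a batch difference. That run cannot test the batch term, and no result here rests on it. Alternatives were DESeq2 1.42.0, other scalings and filters, no batch term, a replicate block, single batches and leaving out each library.

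Members, lists and markers were chosen with earlier results of these data known. Named beside the members are pathway genes past the threshold, the 3 genes of smallest p per list and comparison, and the 3 genes most like a member. Also named are Myh7, Myl7, Myl4, Sln, Bmp10, Dkk3, Kcna5, Emcn, Slc14a2, Aqp3, Fxyd4, Myh11, Acta2, Col1a1, Col3a1, Tagln and Des. These are markers or load genes given beside a member, chosen after their values were seen. Same-numbered hearts deviated together, with correlations of 0.161 to 0.231, or -0.051 to 0.003 after the mean of each batch was removed. The high-salt heart with the highest correlation was replicate 1, 1, 4 and 3 for low-salt replicates 1, 2, 3 and 4, so it often had another number. With the replicate number as a block, edgeR called 0 genes in heart and Nppb had an adjusted p of 0.215. All pairs of libraries within a group differed beyond sampling noise, with chi-square per gene of 20.3 or more over 36 pairs. Labels give 4 rats per group, so p-values measure spread between rats.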

Additional observations from a re-analysis of the deposited data

Results flagged for a closer look

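In 5 of 44 groups of 4 libraries, 1 library lay far outside the range of the other 3, with a gap above Dixon's 95% critical value. For normally distributed values chance gives about 1 in 20 groups. The gaps were taken on CPM and not on a log scale, where a high library stands out less. The 44 groups share the same 24 libraries, so their flags are not independent. Nppa in high-salt heart replicate 4 was 2513 CPM, against 102 to 299.8 CPM in the other 3. Corin in control papilla replicate 4 was 14.7 CPM, against 19.9 to 20.4 CPM. Pcsk6 in control papilla replicate 3 was 126 CPM, against 87.7 to 91.0 CPM. Pcsk6 in high-salt papilla replicate 2 was 85.0 CPM, against 69.1 to 70.8 CPM. Prkg1 in low-salt papilla replicate 4 was 2.62 CPM, against 1.15 to 1.39 CPM.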

How the results depend on the processing

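With the replicate number as a block, edgeR called 0 genes under aldosterone, 52 in papilla on low salt, 0 in heart, 0 in the interaction of aldosterone and low salt and 16 in that of papilla and heart, against 0, 454, 8, 10 and 161 with a batch term, and no member was called. In papilla the same-numbered libraries did not all deviate together, with correlations of -0.045 to 0.380 under aldosterone and -0.044 to 0.291 on low salt. After the mean of each batch was removed, these were 0.076 and 0.121 under aldosterone and 0.136 and -0.152 on low salt. The values do not settle whether the number marks a pairing there. DESeq2 called 373 genes under aldosterone (299 higher, 74 lower), 1695 in papilla on low salt (823 higher, 872 lower), 303 in heart (189 higher, 114 lower) and 657 and 821 in the interactions, and of the members 1 in papilla (Npr1) and 1 in heart (Nppb). No filter gave 4 calls under aldosterone, 85 in heart, with 1 member, Nppb, and 52 in the first interaction. No batch term gave 165 in papilla on low salt and 1 in heart. Batch 1 alone gave 1, 0 and 1 calls in the 3 comparisons, and batch 2 alone 240 in papilla on low salt and 1 in heart. Leaving out each library gave 0 to 2 calls under aldosterone, 2 to 423 in papilla on low salt (2 without low-salt replicate 3), 1 to 8 in heart, and 0 to 67 and 11 to 194 in the interactions. The cause was not tested.

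Of 374 alternative fits of 22 member fold changes, 49 changed sign and 3 passed the threshold, and 8 fold changes never changed sign, those of Nppa, Nppb and Pcsk6 in heart, Npr1 and Prkg2 in papilla on low salt, and Npr2, Npr3 and Prkg1 under aldosterone. Under aldosterone, Pcsk6 was 0.0020 with upper quartile scaling and 0.15 in batch 1, Corin -0.15 with the block and -0.16 in batch 1, Npr1 -0.087 and Prkg2 0.32 in batch 1. In papilla on low salt, Npr2 was 0.0045 with DESeq2 size factors and with upper quartile scaling, 0.0059 with DESeq2, 0.0068 with a filter of 1 CPM, 0.0027 with no batch term and 0.15 in batch 1. Batch 1 also gave Npr3 -0.061, Corin 0.082, Pcsk6 -0.16 and Prkg1 -0.18. In heart, Npr3 was 0.087 in batch 1, and batch 2 gave Npr1 0.035, Npr2 0.00035, Corin -0.14 and Prkg1 -0.19. Leaving out each library gave ranges across 0 under aldosterone for Pcsk6 (-0.18 to 0.15), Corin (-0.46 to 0.26), Npr1 (-0.21 to 0.22) and Prkg2 (-0.44 to 0.15), in papilla on low salt for Pcsk6 (-0.12 to 0.13), Corin (-0.47 to 0.12), Prkg1 (-0.19 to 0.31) and Npr2 (-0.088 to 0.13), and in heart for Npr3 (-0.49 to 0.19), Npr2 (-0.080 to 0.0054) and Prkg1 (-0.018 to 0.28). Plain CPM kept all 60 group levels within 1 SD, and of 63 alternative values of members below the filter 60 kept their sign, 3 became exactly 0 when the 1 library with counts was left out, and 0 passed the threshold.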
